A study of Mus musculus with 2 samples.

Results

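Muscle fibres tear their surface membrane when they contract, and reseal it. The 8 genes described here encode proteins of that resealing: the calcium-sensing membrane protein dysferlin (Dysf), caveolin 3 (Cav3), the tripartite motif protein MG53 (Trim72), the annexins Anxa1, Anxa2, Anxa5 and Anxa6, and the muscle calpain (Capn3). They were taken by symbol, with loci of a symbol summed, and all 8 of 8 were found among 10543 genes with a single symbol. Each occupied 1 locus. The CR library came from mice kept on calorie restriction, eating 40% fewer calories for 25 months on a diet fortified to keep intake of protein, minerals and vitamins, relative to body weight, near that of the controls. The control library came from mice on the control diet. Both were made from poly(A) RNA of skeletal muscle of the thigh, from B6C3F1 mice, a hybrid strain, at an age of 26 months. There is 1 library per diet, so no difference has a replicate check and no p-value is given. The sources used here do not give the number of mice behind a library.

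As background, calcium that enters through a tear draws dysferlin-bearing vesicles to the wound, where they fuse. MG53 gathers such vesicles at the site, annexins bind exposed acidic phospholipids in the presence of calcium and build a cap, and caveolin 3 holds dysferlin and MG53 at the membrane. Calpains cut annexins, dysferlin and the cortical skeleton. In human muscle, mutations of DYSF, CAPN3, CAV3 and the anoctamin gene ANO5 cause muscular dystrophies.

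Promoter windows are shown for the annexins furthest above the control library, Anxa1 and Anxa2, for Dysf, which stood furthest below it, and for Cav3, which lay between them. The windows are RefSeq sequence on build GRCm38.p6, from 250 bases before to 50 bases after the annotated start, and they were found for 7 of 8 genes. Anxa6 is named only. Dysf and Capn3 each have more than 1 window, and the first of Dysf is given. Capitals mark TATAAA, the E-box CAGCTG and the GC box GGGCGG, on either strand.
Anxa1: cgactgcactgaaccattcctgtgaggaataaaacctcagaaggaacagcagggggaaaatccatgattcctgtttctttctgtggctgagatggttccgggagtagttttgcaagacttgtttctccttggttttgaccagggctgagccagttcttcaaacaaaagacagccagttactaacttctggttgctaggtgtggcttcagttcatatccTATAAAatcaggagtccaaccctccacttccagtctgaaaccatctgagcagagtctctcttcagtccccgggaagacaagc
Anxa2: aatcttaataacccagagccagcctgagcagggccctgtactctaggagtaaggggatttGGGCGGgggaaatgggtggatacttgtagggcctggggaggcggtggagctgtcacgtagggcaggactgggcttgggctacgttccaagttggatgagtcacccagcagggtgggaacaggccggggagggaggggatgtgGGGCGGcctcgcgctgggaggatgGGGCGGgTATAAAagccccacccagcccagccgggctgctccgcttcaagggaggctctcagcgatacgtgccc
Dysf: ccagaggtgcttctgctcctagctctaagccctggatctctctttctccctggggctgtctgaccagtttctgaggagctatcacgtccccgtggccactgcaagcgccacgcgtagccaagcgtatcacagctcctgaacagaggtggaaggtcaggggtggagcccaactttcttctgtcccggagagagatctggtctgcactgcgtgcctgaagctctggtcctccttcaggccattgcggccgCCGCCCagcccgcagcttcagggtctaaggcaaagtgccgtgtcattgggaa
Cav3: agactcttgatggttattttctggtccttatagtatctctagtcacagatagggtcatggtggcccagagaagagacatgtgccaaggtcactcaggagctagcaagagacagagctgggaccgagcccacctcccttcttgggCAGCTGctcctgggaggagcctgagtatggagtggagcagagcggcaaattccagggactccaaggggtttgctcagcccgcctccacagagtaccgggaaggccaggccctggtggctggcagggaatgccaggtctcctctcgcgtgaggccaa
The windows lie at chr19:20390622-20390921 on the minus strand for Anxa1, chr9:69453433-69453732 on the plus strand for Anxa2, chr6:84008348-84008647 on the plus strand for Dysf and chr6:112459255-112459554 on the plus strand for Cav3. Counting the annotated start as 0, TATAAA began at -32 in the Anxa1 window and at -17 in the Anxa2 window, and no window of the other 5 genes held it. It occurred in 13.6% of all 32851 windows. CAGCTG, a sequence that myogenic factors can bind, occurred in the windows of Cav3 and Capn3 and in 16.3% of all windows. GGGCGG occurred in those of Dysf and Anxa2 and in 35.7% of all windows. These 3 were marked out of 12 motifs searched, after the matches were seen. Of the others, CANNTG, of which CAGCTG is a special case, was in 72.3% of all windows and in those of 6 of the genes, and CAGGTG was in none of them. The rest matched 1 or 2 genes each. CATTCC was in the windows of Cav3 and Anxa1 (14.7% of all windows), AGAACA in 1 of Dysf (19.0%) and CCAAT in those of Dysf and Trim72 (37.4%). TGANTCA (7.81%) and its special case TGACTCA (5.20%) were in that of Anxa2, the CArG box (1.63%) in that of Anxa5 and the MEF2 site (3.19%) in 1 of Capn3. The matches describe these letters and say nothing of binding.

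The unit of level below is FPKM, the fragments of a gene scaled by its transcript length and by the mapped fragments of the library, so that levels of different genes are compared per length. The columns sum to 13608800 FPKM in the CR library and 12758500 FPKM in the control library, a total too high for FPKM on its usual scale and left without explanation by the sources used here, so levels are compared within this table alone. The log2 ratio is that of CR FPKM + 1 over control FPKM + 1, and folds are the same ratio on the linear scale. The depth of the libraries is unknown, so no counting interval can be given. The muscle identity of both libraries was plain from their most abundant fibre marker, skeletal actin Acta1, at 354522 FPKM in the CR library and 372424 FPKM in the control library. Of 9 measured fibre markers 9 stayed inside 2-fold and had a median log2 ratio of 0.38, while 8 of 8 slow fibre markers were above their control value by 2-fold or more, with a median of 3.11. The slow myosin Myh7 stood at 81978 FPKM in the CR library and 8953 FPKM in the control library. Among all genes whose mean reached 1 FPKM, 8.01% were past 2-fold upward and 10.7% downward. A value of 0 in this table can be a failed estimate, so a gene listed at 0 in a library is given no fold.

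The 4 annexins were all listed higher in the CR library, by unequal amounts, and the other 4 genes stood on both sides of the control library. The summed level of the annexins was 2889 FPKM in the CR library and 2133 FPKM in the control library, a fold of 1.35. That of Dysf, Cav3, Trim72 and Capn3 was 3561 FPKM in the CR library and 3740.4 FPKM in the control library, a fold of 0.952. The annexins so made up 44.8% of the summed level of the 8 genes in the CR library and 36.3% in the control library. No member differed by 2-fold or more: 0 of 8 were that much higher and 0 of 8 that much lower, beside 8.01% and 10.7% of the 10533 genes whose mean reached 1 FPKM. Among the 7886 genes whose mean reached 100 FPKM, as it did for all 8 members, those shares were 4.95% and 5.29%. At 1.5-fold, Anxa1 and Anxa2 were the 2 of 8 higher in the CR library and 0 were lower, beside 16.4% and 18.8% of all genes. The median log2 ratio of the 8 genes was 0.29, with 6 of 8 above 0. The 6 include Capn3 at 0.02, whose sign changed under another scaling of the libraries. The median of all genes was -0.03, with 47.9% of them above 0 and 52.1% below. With so few genes these shares single out nothing about the group.

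**Figure D1:**
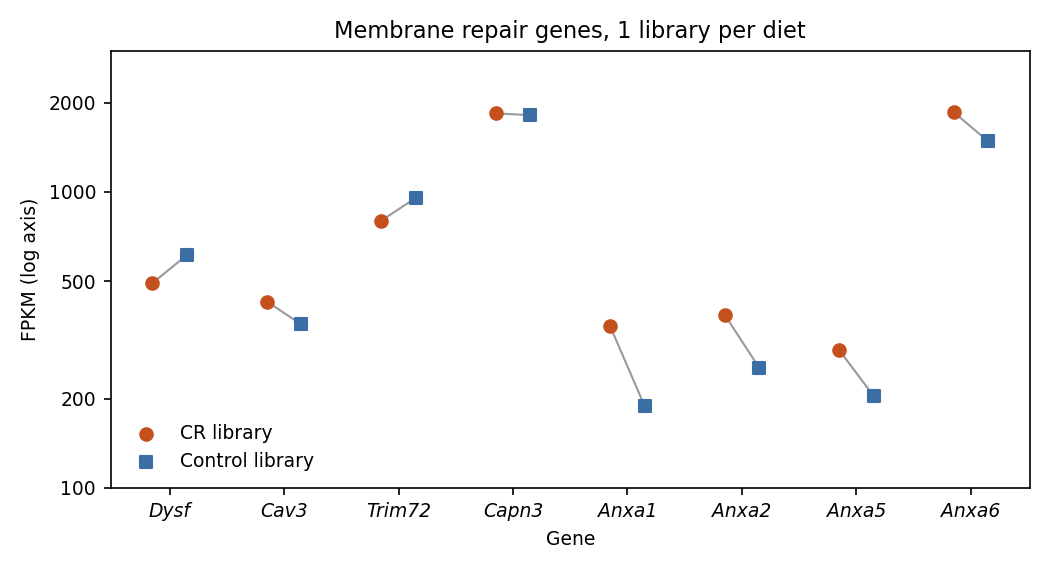
FPKM of each of the 8 membrane repair genes (log axis) in the CR library (circles) and the control library (squares), with a line joining the values of a gene. The line falls to the right for the 4 annexins and Cav3, which stood higher in the CR library, rises for Dysf and Trim72, and is nearly flat for Capn3.

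Dysferlin is the sensor of the group, a large ferlin with calcium-binding C2 domains. Dysf (build mm9, chromosome 6, 83958316 to 84161036, plus strand) was listed at 492 FPKM in the CR library and 611 FPKM in the control library. The CR value was the lower, with a log2 ratio of -0.31 and a level 1.24-fold higher in the control library. Of all genes, 30.7% had a lower ratio, so the difference lies inside the spread of ratios over all genes. The locus names 2 gene models and gives no level for either. It also contains 21 unnamed loci, all 21 on the opposite strand and between 86 and 367 bases long. Nothing in the labels' protocol keeps the strand of a read, so reads of these loci and of Dysf cannot be told apart. Their summed FPKM was 2117 in the CR library and 3595 in the control library. Of the 21, 4 were higher in the CR library and 17 lower, with 5 of these 17 listed at 0 there. Over all 23672 loci, 3691 were listed at 0 in the CR library and 1615 in the control library. The share of all loci lower in the CR library was not counted, so nothing particular to Dysf is read from these counts.

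Caveolin 3 is the muscle caveolin, which coats the small membrane pits called caveolae. Cav3 (chromosome 6, 112409436 to 112422866, plus strand) stood at 426 FPKM in the CR library and 357 FPKM in the control library, a log2 ratio of 0.26. Dysf and Cav3, both on chromosome 6, thus lay on opposite sides of 0. The level of Dysf relative to Cav3 within a library, which no scaling between libraries can change, was 1.15 in the CR library and 1.71 in the control library.

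MG53, the product of Trim72, is a ubiquitin ligase made mainly in striated muscle. Trim72 (chromosome 7, 135147396 to 135155531, plus strand) stood at 800.0 FPKM in the CR library and 954 FPKM in the control library, a log2 ratio of -0.25. Its ratio was close to that of Dysf: the level of Dysf relative to Trim72 was 0.615 in the CR library and 0.640 in the control library.

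Among the annexins, Anxa1 had the largest ratio of the 8 genes. Its product, annexin A1, binds phospholipid with calcium and is also known as an anti-inflammatory protein of leukocytes. Anxa1 (chromosome 19, 20447924 to 20465161, minus strand) stood at 351 FPKM in the CR library and 189 FPKM in the control library. That is a log2 ratio of 0.89, a fold of 1.85, above the ratio of 90.3% of all genes and of 93.4% of those whose mean reached 100 FPKM. Anxa2, whose product forms a complex with S100A10, lies on chromosome 9 (69301490 to 69339592, plus strand). It stood at 384 FPKM in the CR library and 255 FPKM in the control library, a log2 ratio of 0.59. RefSeq names a pseudogene related to Anxa2, and whether the copies share reads in this table was not tested, so its value is uncertain.

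Anxa5, whose product coats membranes in a lattice and is used to stain dying cells, lies on chromosome 3 (36347846 to 36374809, minus strand). It stood at 292 FPKM in the CR library and 205 FPKM in the control library, a log2 ratio of 0.51. Anxa6, whose product carries a doubled annexin core and gathers in the repair cap of mouse muscle, lies on chromosome 11 (54792464 to 54846973, minus strand). It was the most abundant annexin, at 1862 FPKM in the CR library and 1484 FPKM in the control library, with a log2 ratio of 0.33. The abundant annexin of the set therefore had the smallest ratio of the 4, and the 3 at lower levels had ratios from 0.51 to 0.89.

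Capn3 encodes calpain 3, a muscle protease bound to titin. It lies on chromosome 2 (120289326 to 120331910, plus strand) with 3 gene models. It stood at 1842 FPKM in the CR library and 1818 FPKM in the control library, a log2 ratio of 0.02, the smallest difference of the 8. It overlaps 3 loci on the opposite strand, of which 2 are unnamed and the other is the gene Zfp106, which covers the last 116 bases of Capn3. Zfp106 stood at 2802 FPKM in the CR library and 2913 FPKM in the control library, so Capn3 is uncertain to the extent that they share reads.

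The order of levels from high to low was Anxa6, Capn3, Trim72, Dysf, Cav3, Anxa2, Anxa1 and Anxa5 in the CR library and Capn3, Anxa6, Trim72, Dysf, Cav3, Anxa2, Anxa5 and Anxa1 in the control library. The orders differ only in the exchange of Capn3 with Anxa6 and of Anxa1 with Anxa5. With no spread between samples it cannot be said which neighbours in either order differ. Of 28 pairs of members, 2 changed their ratio within a library by 2-fold or more. Dysf relative to Anxa1 was 1.40 in the CR library and 3.23 in the control library, and Trim72 relative to Anxa1 was 2.28 in the CR library and 5.05 in the control library. These pairs are the extremes of 28 and were picked for that. The genes whose pair of levels lay nearest to that of Dysf, by distance on the log2(FPKM + 1) scale over the 2 libraries among 9893 genes, were Hnrnpu (0.02), Mcl1 (0.02) and Pmpca (0.03). Those nearest to Cav3 were Cpsf6 (0.01), Fbxo38 (0.03) and Mrps17 (0.03).

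**Figure D2:**
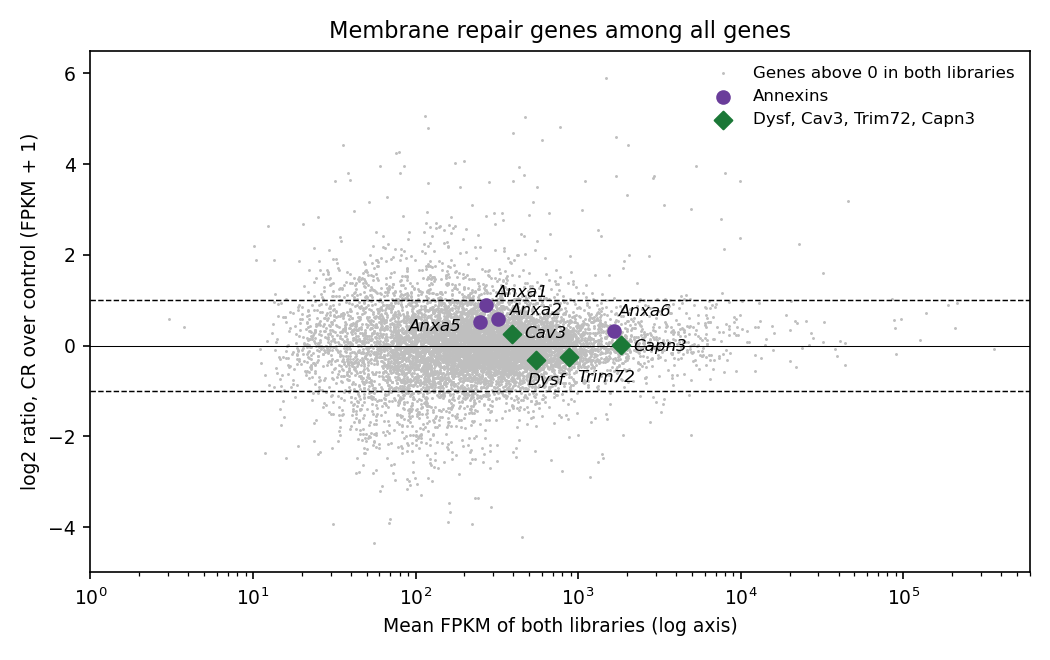
Log2 ratio of CR over control (FPKM + 1) against the mean FPKM of both libraries (log axis) for the genes above 0 in both libraries (grey), the 4 annexins (circles) and the other 4 genes (diamonds). All 8 lie between the dashed lines at 2-fold, with Anxa1 nearest to the upper line at 0.89 and Dysf lowest at -0.31.

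Other genes of membrane repair were taken in 6 lists, of which 58 of 70 genes were measured. Of the 58, 9 passed 2-fold upward in the CR library, 3 of them listed at 0 in the control library, 1 passed it downward and 48 stayed inside it. Those shares, 15.5% and 1.72%, stand beside 8.01% and 10.7% of all genes. The list of annexins and their partners (10 of the 58 genes) and that of caveolae genes (11 of the 58) together held 5 of the 9.

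Of the other annexins and annexin partners, 3 of 10 measured genes passed 2-fold upward, 0 passed it downward and 7 stayed inside it, and the median log2 ratio was 0.49. S100a11, a small calcium-binding protein that pairs with annexin A1, stood at 697 FPKM in the CR library and 218 FPKM in the control library, a fold of 3.18. S100a4 stood at 288.5 FPKM in the CR library and 139 FPKM in the control library, and Anxa9 at 117 FPKM in the CR library and 45.8 FPKM in the control library. Anxa11, the most abundant of the list by the mean of both libraries, was on the other side, at 648 FPKM in the CR library and 869 FPKM in the control library. S100a10, the partner of annexin A2, stood at 545 FPKM in the CR library and 282 FPKM in the control library, a log2 ratio of 0.95 beside 0.59 for Anxa2. Ahnak, a giant protein that binds dysferlin and the S100A10 complex, stood at 524.0 FPKM in the CR library and 837 FPKM in the control library, a log2 ratio of -0.67. Anxa3 (log2 ratio 0.63), Anxa4 (0.09) and Anxa7 (-0.51) show that annexins outside the 4 members stood on both sides of 0. The last 5 genes were chosen after their values were seen.

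Among caveolae genes, 2 of 11 passed 2-fold upward, 0 passed it downward and 9 stayed inside it, and the median log2 ratio was 0.11. Cav2 stood at 1057 FPKM in the CR library and 412 FPKM in the control library, a fold of 2.56. Sdpr, which encodes a cavin of the caveolar coat, stood at 476 FPKM in the CR library and 207 FPKM in the control library. Cav1, the caveolin of adipocytes and endothelium, stood at 1251 FPKM in the CR library and 661 FPKM in the control library, a log2 ratio of 0.92 beside 0.26 for Cav3. Ptrf, the general cavin and the most abundant gene of the list, stood at 2292 FPKM in the CR library and 1961 FPKM in the control library. Murc, the muscle cavin, was chosen after its value was seen and stood at 532 FPKM in the CR library and 890.4 FPKM in the control library, a log2 ratio of -0.74. The caveolins Cav1, Cav2 and Cav3 and the cavins Ptrf, Sdpr and Prkcdbp (log2 ratio 0.11) had ratios above 0, and Murc was the 1 caveolin or cavin below it. Over the whole list of 11 caveolae genes, 7 had ratios above 0 and 4 below it. Besides Murc, those below were Pacsin2 (-0.52), Ehd1 (-0.27) and Ehd4 (-0.06).

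In each of the remaining repair lists most measured genes stayed inside 2-fold. So did most of all genes, of which 8.01% were past 2-fold upward and 10.7% downward. Of 9 other calpain genes 7 stayed inside 2-fold, and the 2 counted as higher, Capn5 (24.9 FPKM in the CR library) and Capn6 (23.0 FPKM in the CR library), were listed at 0 in the control library. The shared small subunit Capns1 stood at 1784 FPKM in the CR library and 2224 FPKM in the control library, the calcium-activated protease gene Capn1 at 739 FPKM in the CR library and 1016 FPKM in the control library, and Capn10 at 82.4 FPKM in the CR library and 98.6 FPKM in the control library, so each of them stood below its control value by less than 2-fold. The calpain median log2 ratio was -0.09, and -0.14 over the 7 genes above 0 in both libraries.

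Of 14 genes for repair vesicles and dysferlin partners 13 stayed inside 2-fold, and the median log2 ratio was -0.0044, or -0.04 over the 13 above 0 in both libraries. Syt7, a synaptotagmin of lysosome fusion, was listed at 34.1 FPKM in the CR library and at 0 in the control library. Lamp2, a lysosomal membrane protein, stood at 2466 FPKM in the CR library and 1375 FPKM in the control library. Snap23, a fusion protein of the surface membrane, stood at 543 FPKM in the CR library and 322 FPKM in the control library. The dysferlin-binding parvin Parvb stood at 477 FPKM in the CR library and 655 FPKM in the control library, and Bin1, which shapes the transverse tubules, at 3921 FPKM in the CR library and 4322 FPKM in the control library. These vesicle genes, like the 8 members, lay on both sides of 0.

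The ESCRT machinery cuts off damaged membrane. Of 12 of its genes 10 stayed inside 2-fold, 1 was higher and 1 lower, and the median log2 ratio was 0.01. The higher was Chmp5 (838 FPKM in the CR library, 359 FPKM in the control library) and the lower Chmp1a (424 FPKM in the CR library, 1308 FPKM in the control library, a log2 ratio of -1.62). Vps24 stood at 563 FPKM in the CR library and 338 FPKM in the control library, and Tsg101, the most abundant by the mean of both libraries, at 1020.0 FPKM in the CR library and 1148 FPKM in the control library. In the list of other ferlins and anoctamins 2 of 7 genes were measured. Ano5 stood at 466 FPKM in the CR library and 444 FPKM in the control library, and Ano6, the phospholipid scramblase, at 488 FPKM in the CR library and 431 FPKM in the control library, so both stood near their control level.

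Annexins A1, A2 and A5, their S100 partners and caveolins 1 and 2 are also made by the other cells of a muscle sample. Markers of several such cells stood higher in the CR library. Beside the counts below stand 8.01% of all genes past 2-fold upward and 10.7% downward. White adipocyte markers passed 2-fold upward for 7 of 8 genes (median log2 ratio 2.03, summed level 19032 FPKM in the CR library and 4149 FPKM in the control library), with Fabp4 the most abundant at 12924 FPKM in the CR library and 2948 FPKM in the control library. Fibroblast markers did so for 5 of 8 (median 1.03, summed level 6218 FPKM in the CR library and 3427 FPKM in the control library), and Dcn stood at 3098 FPKM in the CR library and 1902 FPKM in the control library. Smooth muscle markers, 5 measured out of 7, did so for 3 of 5 (median 1.13, summed level 3269.7 FPKM in the CR library and 1659 FPKM in the control library), and Rgs5 stood at 1305 FPKM in the CR library and 726 FPKM in the control library. In a bulk sample, more cells of a type and more RNA per cell cannot be told apart. The part of these cells in the annexin and caveolin values was not tested. The summed level of the fibre markers was also higher in the CR library, a fold of 1.31 beside 1.35 for the 4 annexins. Of the 9 fibre markers, 6 had ratios above 0 and 3 below. For the slow fibre markers the fold of sums was 8.57. The part of the fibres and of fibre type in the values of the 8 genes was not tested.

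Macrophage and endothelial markers had lower median ratios than the adipocyte, fibroblast and smooth muscle lists. Even so, 7 of 8 macrophage and 6 of 8 endothelial markers stood above their control value. All 3 neutrophil markers measured were counted past 2-fold upward, 1 of them listed at 0 in the control library. The other 2 were above 0 in both libraries. Of 8 macrophage markers measured out of 12 listed, 2 passed 2-fold upward and 6 stayed inside it (median 0.47, or 0.41 over the 7 above 0 in both libraries, summed level 869 FPKM in the CR library and 664 FPKM in the control library). C1qa stood at 284 FPKM in the CR library and 196 FPKM in the control library, and Cd14 was listed at 28.0 FPKM in the CR library and 0 in the control library. The 3 neutrophil markers measured out of 8 were higher, and S100a8 was listed at 581 FPKM in the CR library and 0 in the control library; their summed level was 809 FPKM in the CR library and 100.1 FPKM in the control library. Endothelial markers passed 2-fold upward for 2 of 8 (median 0.20, summed level 2969 FPKM in the CR library and 2246 FPKM in the control library), with Vwf at 506 FPKM in the CR library and 472 FPKM in the control library. Their part in the annexin values was not tested either. The share of all genes past 2-fold upward was 8.01%.

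All 6 Schwann cell markers stood above their control value, and 1 of the 6 passed 2-fold upward. Their median log2 ratio was 0.57, or 0.44 over the 5 above 0 in both libraries. The summed level was 1048 FPKM in the CR library and 686 FPKM in the control library. The 1 past 2-fold was S100b, at 42.3 FPKM in the CR library and 0 in the control library. Pmp22 stood at 351 FPKM in the CR library and 178 FPKM in the control library. Of 4 satellite cell markers measured out of 6, 2 stood above their control value and 2 below it, and 1 passed 2-fold upward. Their median log2 ratio was -0.18, or -0.40 over the 3 above 0 in both libraries. The summed level was 1079 FPKM in the CR library and 1297 FPKM in the control library. The 1 past 2-fold was Vcam1, at 30.4 FPKM in the CR library and 0 in the control library. Sdc4 stood at 406 FPKM in the CR library and 536 FPKM in the control library. Tendon markers went the other way, with 5 of 7 past 2-fold downward (median -1.32, or -1.18 over the 5 above 0 in both libraries, summed level 999 FPKM in the CR library and 1998 FPKM in the control library). Fmod stood at 373 FPKM in the CR library and 844 FPKM in the control library, and Tnc and Chad were listed at 0 in the CR library, against 223 FPKM for Tnc and 85.0 FPKM for Chad in the control library. Among the tendon markers above 0 in both libraries, 3 of 5 passed 2-fold downward. The shares of all genes past 2-fold were 8.01% upward and 10.7% downward. The cell types so differed in direction, and no single one was set against the 8 genes by a test.

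**Figure D3:**
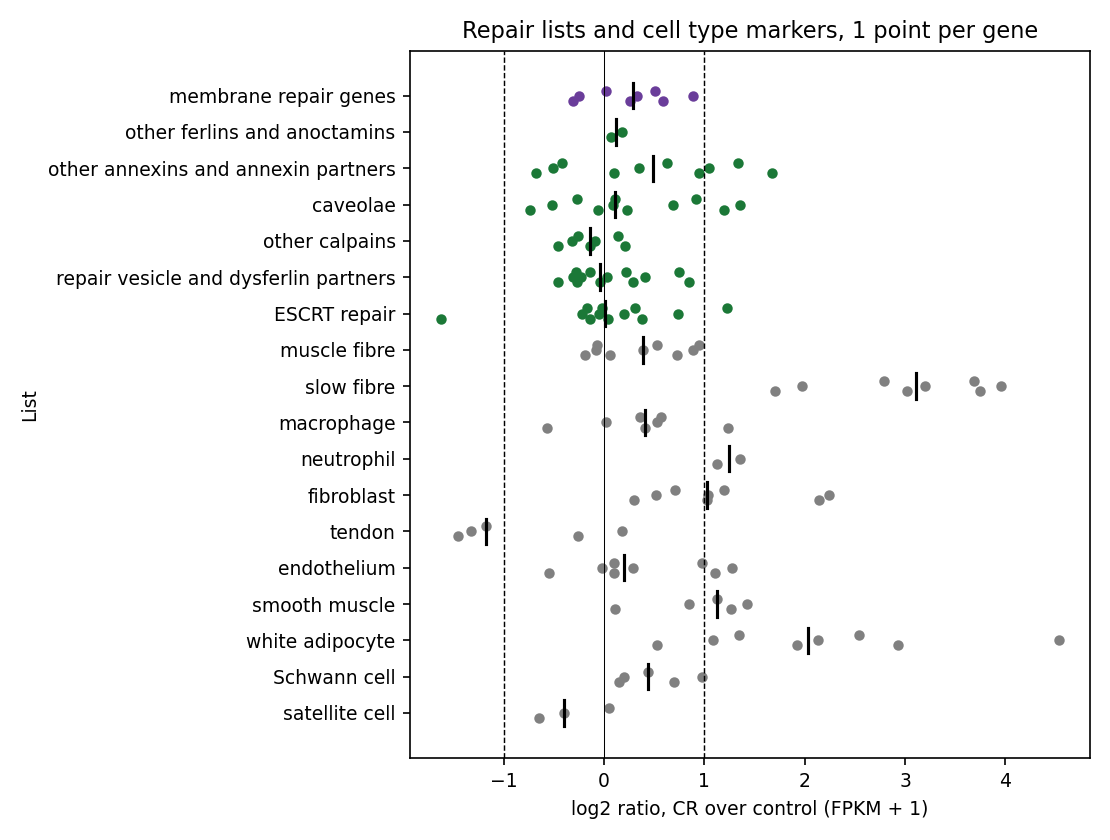
Log2 ratio of CR over control (FPKM + 1) for each measured gene of the 8 membrane repair genes (top row), 6 other repair lists and 11 lists of fibre and cell type markers, without the 9 genes listed at 0 in a library. Vertical bars are medians of the points drawn, and dashed lines mark 2-fold. The repair lists centre between -0.14 and 0.49, the slow fibre and white adipocyte markers near 3.11 and 2.03.

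The signs of 7 of the 8 ratios were the same under other scalings of the libraries, and that of Capn3 was not. Such a scaling moves every ratio by nearly the same amount, so the kept signs are no independent check. The log2 ratio of Capn3 was 0.02 as reported. It was -0.05 after rescaling the libraries to 1 sum that leaves out the 50 most abundant genes, so no direction is given for Capn3.

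**Figure D4:**
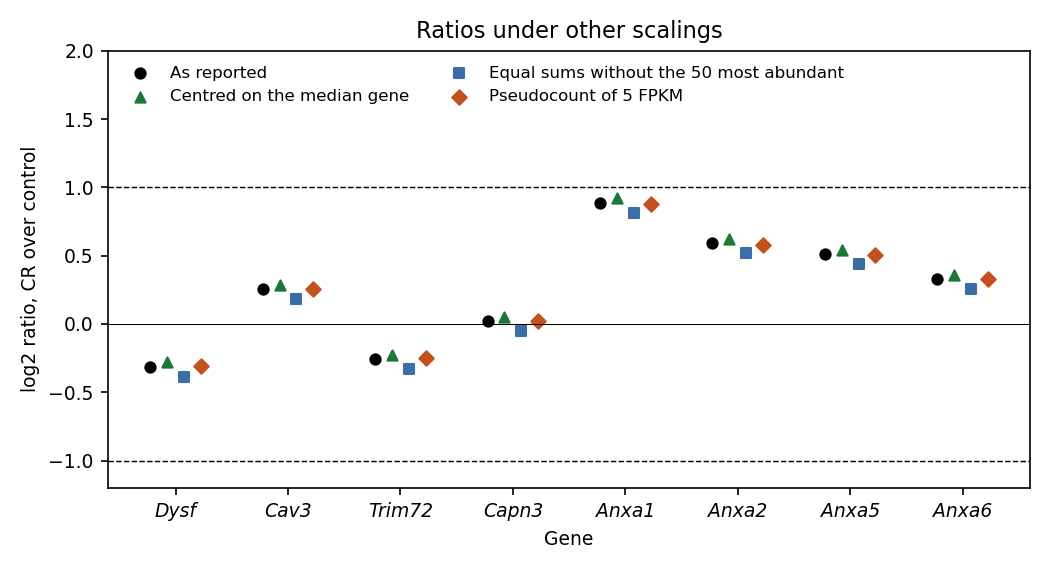
Log2 ratio of CR over control for each of the 8 genes as reported (circles), centred on the median gene (triangles), rescaled to 1 sum that leaves out the 50 most abundant genes (squares) and with a pseudocount of 5 FPKM (diamonds). The dashed lines mark 2-fold. Points of a gene lie close together, and those of Capn3 fall on both sides of 0.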

How the data were processed

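The labels name 1 CR and 1 control library of mouse thigh muscle, each sequenced as 76 bp paired ends. TopHat 1.2.0, Cufflinks, Cuffdiff and build mm9 are named in the submitters' processing notes; for other versions, options and the annotation, the sources used here give nothing. The authors deposited FPKM for 23672 loci, 1 column per library, per the file headers. The lowest deposited value is 1. More than 6 significant digits occur for 98 of 101 control values from 1 to 2 and for 0 of 77 from 2 to 3, the mark of 1 having been added, so 1 was subtracted; the offset is inferred. Depth is unknown, which leaves the precision of each value unknown.

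Loci with 1 symbol were summed by symbol and 234 merged loci left out. The 10533 genes whose mean reached 1 FPKM formed the background. As each group is 1 library, nothing was tested across samples: log2 ratios with a pseudocount of 1 FPKM were described, and differences of 2-fold counted. Dysf, Cav3 and the other genes, and all lists, were chosen with earlier results of these data known. All 8 genes are named; of each other repair list, the 3 largest ratios above 0 in both libraries, genes listed at 0 and the most abundant by mean; of each marker list, the most abundant and genes listed at 0. The code for the ratios and counts was checked on simulated data with known changes and no noise, which says nothing of error between libraries. Python 3.11.15, numpy 2.4.6, pandas 2.3.3 and matplotlib 3.10.9 were used. Alternatives were other pseudocounts, filters, scalings, folds and ways to treat loci. RefSeq promoters were matched by symbol.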

Additional observations from a re-analysis of the deposited data

Results flagged for a closer look

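Inside Dysf, 2 short unnamed loci on the opposite strand, outside the gene comparison, exceeded 2-fold upward in the CR library, while Dysf itself stood lower there. The locus on chromosome 6 from 84138194 to 84138279 was listed at 664 FPKM in the CR library and 261 FPKM in the control library, a fold of 2.54. The locus from 84139677 to 84139851 was listed at 82.8 FPKM in the CR library and 7.08 FPKM in the control library, a fold of 10.4. Of the other loci there, 6 were at least 2-fold lower in the CR library with a value above 0 in both libraries. Another 5 were listed at 0 in the CR library, as were 3691 of all 23672 loci. All are short, the depth is unknown, and whether they are transcripts of their own or fragments of Dysf RNA was not tested. The 2 higher loci were picked out of 21. Of all genes, 8.01% were past 2-fold upward and 10.7% downward, and the share over all loci was not counted. Nothing particular to Dysf is read from these counts.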

How the results depend on the processing

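Of the 8 genes, 7 kept the sign of their log2 ratio, and all 8 stayed within 2-fold, under 7 alternatives: centring on the median gene, pseudocounts of 0.1 and 5 FPKM, rescaling to 1 sum that leaves out the 50 most abundant genes, the largest locus of a symbol, counting merged loci for each symbol, and not removing the offset. Capn3 was the exception, at -0.0544 with the rescaling, which by its construction lowers each ratio by 0.07. Anxa1 ranged from 0.82 to 0.92 and Dysf from -0.39 to -0.28. The median of the 8 ranged from 0.22 to 0.32 over 10 alternatives. Most of these had little room to change the result. Each of the 8 genes occupies 1 locus, so both ways of treating loci returned the reported ratios. The filters keep all 8 genes, so the median stayed at 0.2915. Centring and rescaling move every ratio by nearly the same amount, and pseudocounts weigh little at these levels. The kept signs are therefore no independent check of the ratios.
At 1.5-fold, 2 of the 8 genes were higher; 5 genes of the other annexins and their partners were higher and 1 lower, 4 caveolae genes higher and 1 lower, 3 vesicle, 2 ESCRT, 3 fibre and 3 Schwann cell genes higher, and 1 satellite cell gene lower. With a mean of at least 100 FPKM, the counts higher became 0 for calpain, vesicle, macrophage, Schwann and satellite cell genes, and 3 tendon genes were lower. With genes above 0 in both libraries, they were 0 for calpain, vesicle, Schwann and satellite cell genes, 1 for macrophages, and 3 tendon genes lower. The shares over all genes moved too. They were 16.4% higher and 18.8% lower at 1.5-fold, and 4.95% and 5.29% past 2-fold with a mean of at least 100 FPKM. With genes above 0 in both libraries they were 6.15% and 6.85%. Of the 9 list genes listed at 0 in a library, the filter at 100 FPKM keeps S100a8 and Tnc, and the other filter keeps 0. Centring gave 2 higher Schwann cell genes and 3 higher endothelial genes. The rescaling gave 3 higher fibroblast genes and 2 higher genes of the other annexins and their partners. With a mean of at least 100 FPKM, these annexins and partners again had 2 higher. Neutrophil genes had 2 higher with that filter and with genes above 0 in both libraries. At 1.5-fold, 6 fibroblast, 3 endothelial and 4 smooth muscle genes were higher. No paired analysis was possible because each diet has 1 library, and leaving out a library leaves no comparison. Unknown depth limits every value.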

Other observations

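The gene nearest to Cav3 among the named loci is the oxytocin receptor gene Oxtr, on the opposite strand. Its locus (chromosome 6, 112423678 to 112439802) lies 811 bases past the end of Cav3 and was listed at 102 FPKM in the CR library and at 0 in the control library. The loci do not overlap in the table, and whether reads past the end of Cav3 entered the Oxtr value was not tested. The named gene nearest to Dysf, Zfml, stood at 327 FPKM in the CR library and 315 FPKM in the control library.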
